A study of Pinus pinaster with 18 samples.

Results

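The transcripts described here stand for 3 enzymes of maritime pine (*Pinus pinaster*), 1 transcript each, on the route from the shikimate pathway through phenylalanine to the monolignol and flavonoid branches. They are EPSP synthase ppt_146849, arogenate dehydratase ppt_96282 and flavanone 3-hydroxylase (F3H) ppt_120253. These 3 of the 287424 transcripts in the count table were picked by identifier for how they differed between somatic and zygotic embryos in these same libraries. Their levels and fold changes are therefore given as a description, without a test. The enzyme names are database matches in other species, and for ppt_146849 the study's annotation lists tRNA splicing terms beside those of EPSP synthase.

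RNA was sequenced from 6 groups of 3 libraries, and reads were counted per assembled transcript. The somatic groups were embryos of PN519, a single embryogenic line. They matured in darkness at 24 °C on a medium holding phytagel at 9 g/L, sucrose at 68 g/L and abscisic acid at 80 µM. These were early-stage translucent embryos (ES1, 4 to 6 weeks), opaque pre-cotyledonary embryos (ES2, 6 to 10 weeks) and cotyledonary embryos (ES3, 12 to 14 weeks). The zygotic groups came from seeds of 1 orchard. They were called PC before cotyledons formed, EC at an early and C at a full cotyledonary stage. All somatic embryos were thus 1 genotype on 1 medium, so that embryo type, genotype, culture and harvest cannot be told apart in any comparison of ES1 with PC, ES2 with EC or ES3 with C. The labels do not say whether the 3 libraries of a group are biological or technical replicates. The methods mention technical replicas of independent biological samples without tying either to a library, and p-values measure the spread between libraries only.

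Plants make phenylalanine in plastids. EPSP synthase catalyses the step of the shikimate pathway that is blocked by the herbicide glyphosate, and arogenate dehydratase converts arogenate into phenylalanine. Phenylalanine ammonia-lyase then removes the amino group, and 4-coumarate-CoA ligase activates the product for the lignin and flavonoid branches. Caffeoyl-CoA O-methyltransferase methylates the aromatic ring on the way to the monolignols, the building blocks of lignin. In the flavonoid branch, chalcone synthase and chalcone isomerase form flavanones, which F3H hydroxylates on the way to flavonols, proanthocyanidins and anthocyanins.

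Depth differed between the groups. The 15 libraries outside C held 22725467 to 43510184 counts on 24704 to 25194 transcripts each, whereas the 3 C libraries held 74949347 to 89590401 counts on 132828 to 136626 transcripts. In C, 29.1 to 29.4% of the counts lay on 137783 transcripts that had no count in any other group. The origin of these counts was not tested, and every level given for C rests on these libraries. Levels are given as CPM, the usual scaling of counts by library size, here over the 23118 transcripts that passed a filter on low counts, scaled by the trimmed mean of M values (TMM), whose factors were 0.422 to 0.428 in C and 0.824 to 1.44 elsewhere. Because C stands apart, its levels are also given as CPM of the deposited total. On that scale the median of all kept transcripts was 1.78 log2 units higher in ES3 than in C, against 0.19 with TMM factors. All 3 enzyme transcripts passed the filter, each through the libraries of the embryo type in which it was high. Transcripts named late embryogenesis abundant, markers of maturing embryos, were detected in every group, 47 of 47 in each somatic library, 40 to 45 in PC and EC and 29 to 31 in C. Their summed level, with TMM factors, was 5863 to 6464 CPM in ES1, against 2657 to 2840 in PC, 10325 to 11526 in ES2, against 3100 to 3445 in EC, and 10681 to 14567 in ES3, against 12362 to 13727 in C. It thus differed between the paired stages before C, and its part in the comparisons was not tested. Levels are not compared between transcripts, because their lengths were not used here.

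The 3 transcripts did not move together. EPSP synthase was higher in somatic embryos at all 3 stages, whereas arogenate dehydratase and F3H were nearly uncounted in somatic embryos. At each stage 1 of 3 was called higher and 2 of 3 lower in somatic embryos, where a call needed a log2 fold change of a size above 1 at an adjusted p under 0.05. The same calls were made for 37.7% of all tested transcripts between ES1 and PC, 39.4% between ES2 and EC and 45.1% between ES3 and C, and since these contrasts chose the transcripts nothing is read from their count. The libraries of the groups did not overlap for 3 of 3 at each stage, as for 69.4%, 68.5% and 66.1% of all tested transcripts.

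**Figure D1:**
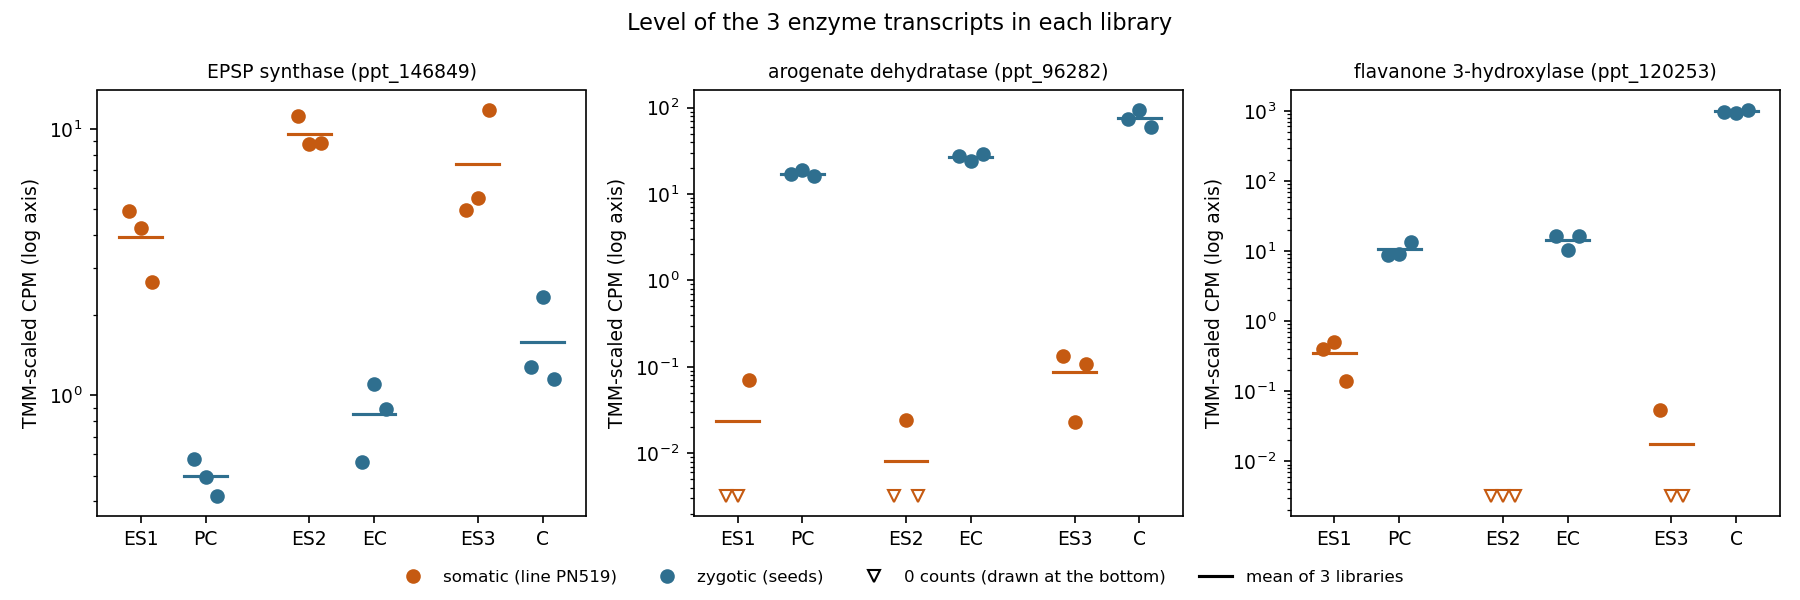
TMM-scaled CPM (log axis) of the 3 transcripts in each of the 18 libraries, somatic groups in orange and zygotic groups in blue, with the mean of 3 libraries as a line and libraries at 0 counts as open triangles. EPSP synthase lies higher in the somatic libraries of every stage pair, and arogenate dehydratase and F3H lie higher in the zygotic ones.

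EPSP synthase was counted in every library, with few counts in zygotic embryos. It had 4.89, 4.23 and 2.66 CPM in ES1, against 0.578, 0.493 and 0.418 CPM in PC. It had 11.2, 8.79 and 8.84 CPM in ES2, against 0.562, 1.1 and 0.887 CPM in EC. In ES3 it had 4.96, 5.48 and 11.8 CPM, against 1.27, 2.33 and 1.15 CPM in C. The somatic and zygotic libraries did not overlap at any stage, and even the lowest somatic library lay above the highest zygotic one.

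The log2 fold change of EPSP synthase was 2.98 ± 0.41 (SE) in ES1 against PC, 3.48 ± 0.40 in ES2 against EC and 2.21 ± 0.38 in ES3 against C, that is 7.89-, 11.1- and 4.63-fold higher. Ordered by mean, the groups ran ES2 (9.60 ± 1.36 CPM, SD, n = 3), ES3 (7.41 ± 3.79), ES1 (3.93 ± 1.15), C (1.59 ± 0.65), EC (0.849 ± 0.270) and PC (0.497 ± 0.080). The neighbours ES2 and ES3 overlapped. ES3 and ES1 lay next to each other without overlapping, at 4.96 CPM in the lowest ES3 library and 4.89 in the highest ES1 library, and they overlapped in CPM of the deposited total. Likewise EC and PC overlapped, while C and EC did not. The mean of ES3 rested on replicate C, which had 11.8 CPM and was also, over all transcripts, the library farthest from its group (chi-square over degrees of freedom 158 and 147). The zygotic values came from 18 to 62 counts per library, so that counting error is large in them.

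The libraries ES1 replicate C, ES2 replicate B and ES3 replicate C deviated together from their group means over all kept transcripts (r = 0.59, 0.42 and 0.44 for their pairs). The labels name no batch that sets them apart, and the part of this shared deviation in the EPSP synthase values was not tested. Without these 3 libraries the log2 fold changes of EPSP synthase were 3.19, 3.54 and 1.71 at the 3 stages.

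Arogenate dehydratase ppt_96282 showed the opposite pattern. It had 0, 0 and 2 counts in the ES1 libraries, 0, 1 and 0 counts in ES2 and 5, 1 and 3 counts in ES3. In the zygotic libraries it had 705, 721 and 728 counts in PC, 869, 1253 and 1390 in EC and 1716, 2506 and 1335 in C. Every zygotic library thus held at least 705 counts of this transcript, and no somatic library more than 5.

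In CPM, the zygotic means were 17.2 ± 1.4 in PC, 26.9 ± 2.6 in EC and 75.4 ± 17.6 in C (SD, n = 3). The level was 864-fold lower in ES1 than in PC, with an exact 95% counting interval of 239 to 7139 from 2 somatic counts, both in ES1 replicate C. Without that library it was at least 415-fold lower, against a floor of 3 counts. It was 3416-fold lower in ES2 than in EC, from 1 somatic count, with an interval of 613 to 134946. Without ES2 replicate B, which held that count, it was at least 774-fold lower, against the same floor. Against C, the log2 fold change of ES3 was -9.77 ± 0.43. These intervals cover counting error only. The 3 somatic groups were not ordered, since they differed by few counts and their libraries overlapped.

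F3H ppt_120253 had its highest values in C and almost none in the later somatic stages. It had 15, 18 and 4 counts in the ES1 libraries, 0 in each ES2 library and 2, 0 and 0 in ES3. In the zygotic libraries it had 369, 347 and 622 counts in PC, 529, 544 and 785 in EC and 23082, 24964 and 23321 in C. This corresponded to 10.5 ± 2.73 CPM in PC, 14.5 ± 3.5 in EC and 984 ± 49 in C (SD, n = 3).

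The log2 fold change of F3H in ES1 against PC was -4.85 ± 0.35, or 28.7-fold lower. In ES2 it was at least 602-fold lower than in EC, taking a floor of 3 counts over the 3 ES2 libraries. In ES3 it was 53611-fold lower than in C, with an exact 95% counting interval of 14840 to 442689 from 2 somatic counts. Under the deposited totals this last ratio was 17016, and without ES3 replicate A, which held both counts, the level was at least 23480-fold lower, against the floor. The bound in ES2 against EC was 389 without ES2 replicate C. The PC and EC libraries overlapped, and so did ES3 and ES2.

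The order of the zygotic stages depended on how C was scaled. With TMM factors, C against EC had a log2 fold change of 6.08 ± 0.31 for F3H, 1.49 ± 0.26 for arogenate dehydratase and 0.89 ± 0.39 for EPSP synthase. With the deposited totals as library size, the same values were 3.95, -0.65 and -1.25. In CPM of the deposited total, arogenate dehydratase had 22.6 in C and 35.5 in EC, and EPSP synthase 0.475 in C and 1.13 in EC. The higher level of F3H in C was present on both scales, at 295 CPM of the deposited total in C and 19.1 in EC. For arogenate dehydratase and EPSP synthase the direction in C against EC turned round between the scales.

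**Figure D2:**
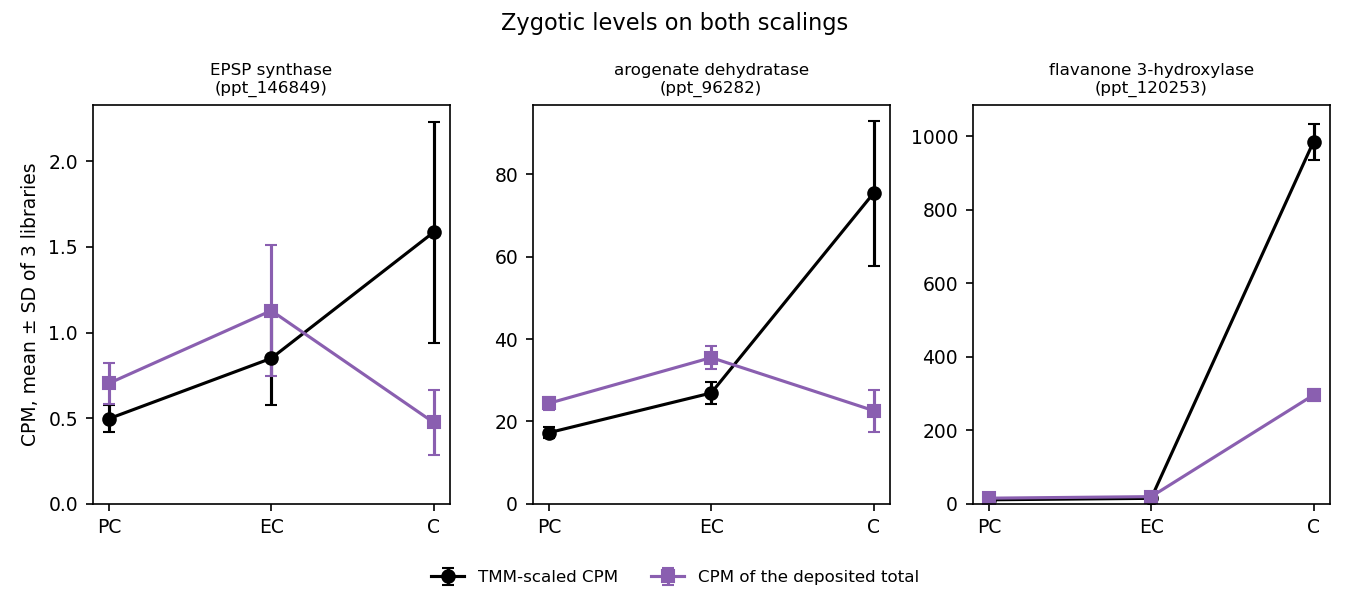
Mean ± SD of 3 libraries for the 3 transcripts at the zygotic stages PC, EC and C, as TMM-scaled CPM (circles) and as CPM of the deposited total (squares). F3H rises in C on both scalings, and arogenate dehydratase and EPSP synthase are higher in C than in EC with TMM factors and lower with the deposited total.

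In C against EC, 2 of 3 were called higher with TMM factors and 3 of 3 did not overlap, where 51.7% of all tested transcripts were called and 73.9% did not overlap. In EC against PC none of the 3 was called and 1 did not overlap, where 5.83% of all were called higher, 2.25% lower and 8.08% in either direction, and 39.3% did not overlap. In ES2 against ES1 EPSP synthase was called higher, at 1.29 ± 0.36 on the log2 scale, and F3H lower, at least 15.6-fold against the floor (10.1 without ES2 replicate C). Of all tested transcripts 8.42% were called higher, 9.6% lower and 18% in either direction over this step, and 50.4% did not overlap, as 2 of the 3. In ES3 against ES2 none was called and the libraries overlapped for each of the 3, where 1.65% of all were called higher, 2.72% lower and 4.36% in either direction, and 26.3% did not overlap. These steps use the same libraries as the stage comparisons and are descriptions too.

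Among the names held, which cover only part of the transcripts, arogenate dehydratase and F3H have partners with the same protein name and EPSP synthase has none. Reads of near-identical copies could have been split between such partners. How reads that fit several transcripts were counted is not stated. The share of a name's counts that fell on each transcript needs no scaling between libraries, and was compared for this reason.

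Among the names held, arogenate dehydratase had 4 transcripts with consecutive identifiers, ppt_96282 to ppt_96285, and all 4 were nearly uncounted in somatic embryos. Their summed level was 0.0706 ± 0.0705 CPM in ES1, 0.106 ± 0.184 in ES2 and 0.488 ± 0.218 in ES3, against 55.7 ± 6.5 in PC, 84.4 ± 10.3 in EC and 254 ± 56 in C (SD, n = 3). These came from 7, 13 and 55 somatic counts and 6945, 10881 and 18680 zygotic counts. The 3 partners exceeded the 2 CPM of the filter in zygotic libraries alone, so their difference is a description too. In the 9 zygotic libraries ppt_96282 took 28.9 to 34.2% of the summed counts, and in ES3 it took 9 of 55 (16.4%, 95% Wilson interval 8.86 to 28.3%).

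F3H had 2 transcripts with the name, ppt_120253 and ppt_120249. In zygotic libraries ppt_120253 took 58.8 to 65.7% of their counts, in PC, EC and C alike. In somatic embryos the few counts lay mostly on ppt_120249. The share of ppt_120253 was 19.7% in ES1 (37 of 188 counts, 95% Wilson interval 14.6 to 25.9%) and 1.22% in ES3 (2 of 164 counts, 0.335 to 4.34%). In ES2 it was 0 of 58 counts (95% Wilson interval 0 to 6.21%). None of the 9 somatic libraries exceeded 23.4%, though ES2 replicate A held only 0 of 2 counts (95% Wilson interval 0 to 65.8%). Since ppt_120253 was picked for how it differed between embryo types, its share is a description too. Other same-name pairs were not compared.

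The folds of ppt_120249 were smaller than those of ppt_120253, a difference that was not tested. It passed the filter with its 9 zygotic libraries, in which it was high, so no p is given for somatic against zygotic embryos. It had 1.49 CPM in ES1 and 6.35 in PC (log2 fold change -2.09 ± 0.46), 0.457 in ES2 and 9.32 in EC (-4.34 ± 0.51), and 1.65 in ES3 and 542 in C (-8.42 ± 0.55). Summed over both transcripts, F3H was 51.3-fold lower in ES2 than in EC and 1004-fold lower in ES3 than in C. The fold of ppt_120253 alone was larger than that of the name at each stage. The part of read assignment between the pair was not tested.

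**Figure D3:**
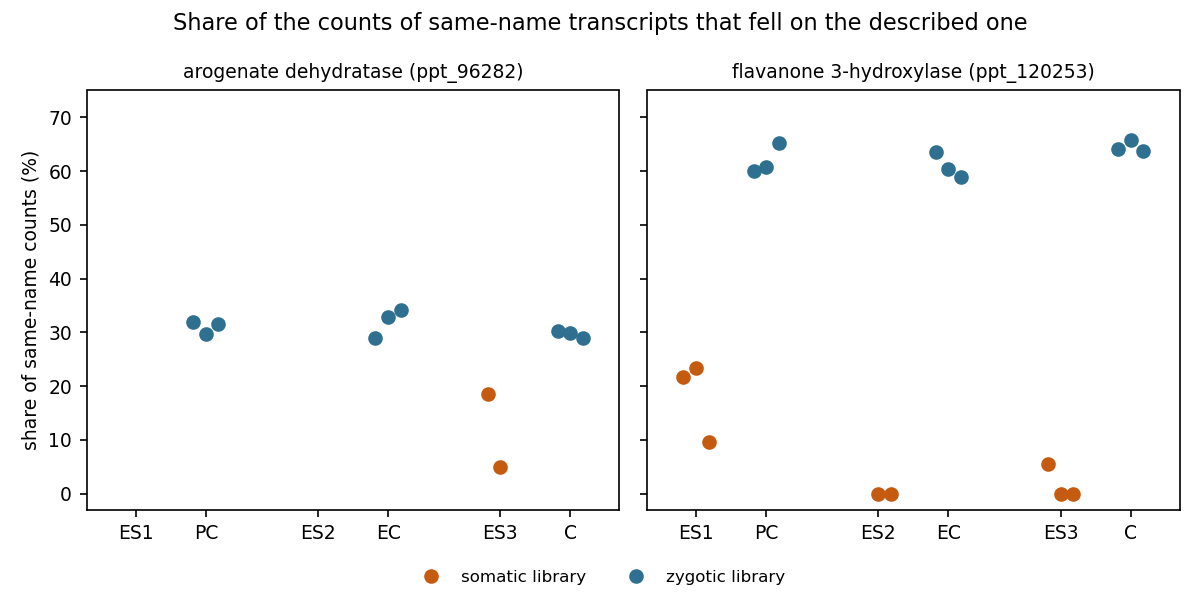
Share (%) of the counts of all transcripts with the same protein name that fell on ppt_96282 and ppt_120253, 1 point per library with at least 20 such counts, somatic in orange and zygotic in blue. The F3H share is 58.8 to 65.7% in zygotic libraries and at most 23.4% in somatic ones, and the arogenate dehydratase share is 28.9 to 34.2% in zygotic libraries.

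A further 3 transcripts were named putative flavanone 3-dioxygenase, another name of the F3H reaction. Of these, ppt_255372 and ppt_255373 were called higher in somatic embryos at all 3 stages, in contrast to ppt_120253. In ES2 against EC the call of ppt_255372 (1.16) was lost without ES2 replicate B (0.99, edgeR adjusted p = 0.0661), without EC replicate 2 (1.06, 0.0648) and with the deposited totals (0.86). Of this pair, ppt_255373 had 7.32 CPM in ES1 and 2.43 in PC (1.59 ± 0.39, adjusted p = 0.00258), 13.6 in ES2 and 4.22 in EC (1.68 ± 0.38, 0.00144), and 17.1 in ES3 and 3.06 in C (2.47 ± 0.40, 5.33e-05). The remaining one, ppt_100235, passed the filter with its PC and EC libraries, so no p is given for it. It was called lower at all 3 stages, with 2.20 CPM in ES3 and 6.06 in C (-1.46 ± 0.23). That last value was 0.20 with the deposited totals, so that its direction at ES3 depended on the scaling. Transcripts with the F3H name or reaction thus went both ways between the embryo types. The arogenate dehydratase transcripts ppt_96282 to ppt_96285 went 1 way, but they exceeded the filter's minimum in zygotic libraries alone and had to differ. They do not stand for the whole enzyme family, which the paper describes as larger. By quantitative PCR the paper found less transcript of the family members ADT-F and ADT-G in its somatic lines at ES2 and ES3. The exception was ADT-G in PN519, which was higher at ES2 than in zygotic embryos at EC.

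The rest of the pathway was followed with 42 transcripts, the 3 above included, drawn by name from the study's own tables. Of the other 39, 38 passed the filter, and they could be tested. Between ES1 and PC 19 of 38 were called higher, against 24.2% of all tested transcripts, and 12 lower, against 13.5%. Between ES2 and EC 18 were called higher (22.7% of all) and 15 lower (16.7%). Between ES3 and C 25 were called higher (29.9%) and 7 lower (15.1%), or 31 and 4 with the deposited totals. The median log2 fold change of the list was 0.90, 0.87 and 2.04 at the 3 stages, beside 0.03, -0.04 and 0.19 over all tested transcripts. Of the 38, 12 were called higher and 6 lower at all 3 stages, and 8 changed direction between stages. The shares of all tested transcripts with these patterns were not computed, so nothing is read from these counts. Of the 38, 3 exceeded 2 CPM in somatic libraries alone (ppt_75082, ppt_103765 and ppt_254870) and had to differ. Likewise 3, the arogenate dehydratase partners, exceeded it in zygotic libraries alone and had to differ. Because the study's tables were built from these libraries, the list is not independent evidence of a direction.

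**Figure D4:**
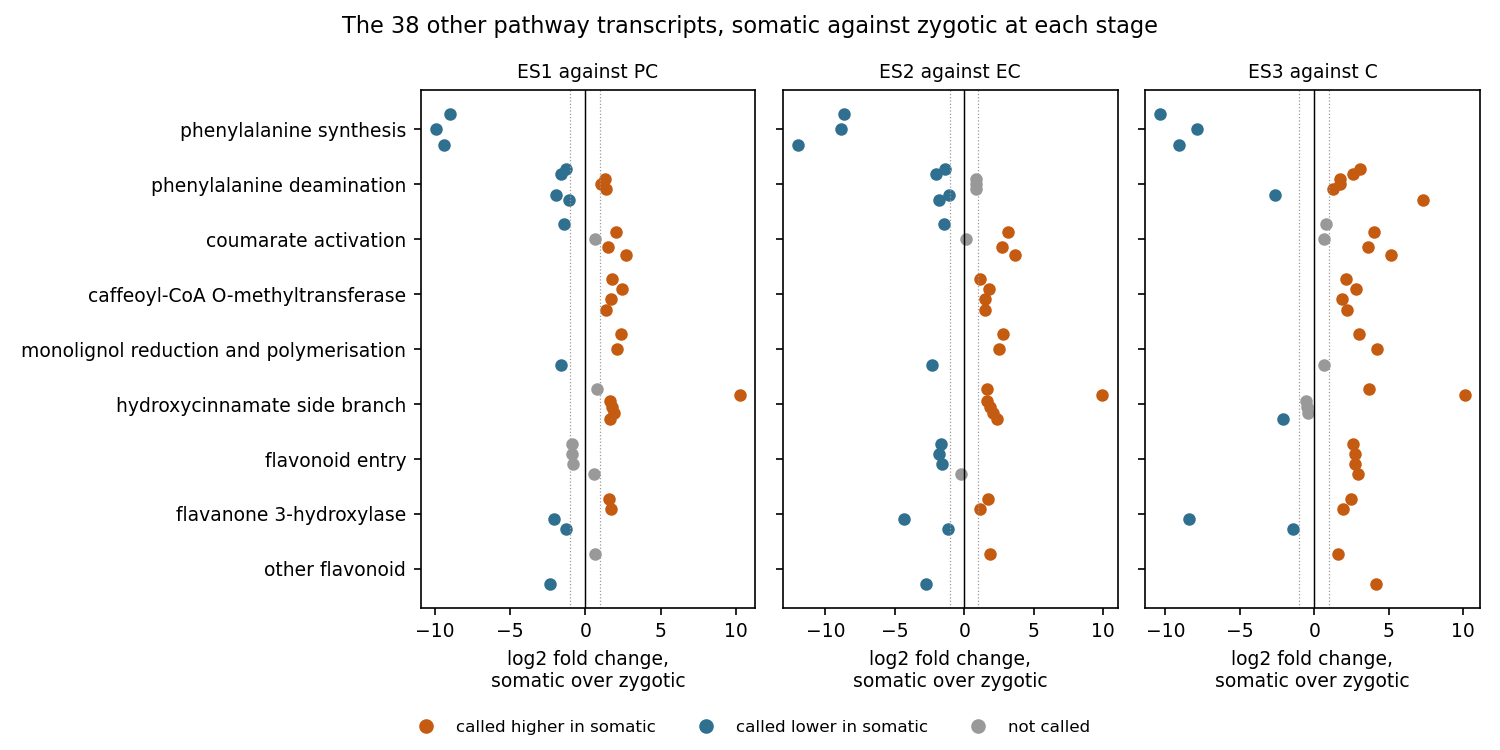
Fitted log2 fold change, somatic over zygotic, of the 38 other pathway transcripts at each stage, 1 point per transcript grouped by enzyme step, coloured by call. All 4 caffeoyl-CoA O-methyltransferase transcripts lie to the right at each stage, all 3 arogenate dehydratase transcripts to the left, and the 4 flavonoid entry transcripts lie left of 0 in ES2 against EC and right of 0 in ES3 against C. The methyltransferase ppt_75082 and the arogenate dehydratase transcripts exceeded the 2 CPM of the filter in 1 embryo type alone and had to differ. The position of a transcript with 0 counts in a group depends on the fit's prior count.

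Phenylalanine ammonia-lyase and its relatives did not follow arogenate dehydratase. Of 7 transcripts, 3 were called higher and 4 lower in ES1 than in PC, none higher and 4 lower in ES2 than in EC, and 6 higher and 1 lower in ES3 than in C. Phenylalanine ammonia-lyase ppt_140469 had 11.8 CPM in ES1 and 4.69 in PC (log2 fold change 1.33 ± 0.25, adjusted p = 0.000348). It had 13.5 CPM in ES3 and 4.10 in C (1.72 ± 0.26, 2.67e-05), whereas its 0.87 ± 0.25 in ES2 against EC did not reach the fold set for a call. In contrast, ppt_58657 had 7.83 CPM in ES1 and 18.9 in PC (-1.27 ± 0.41, 0.0155), a call that was lost without PC replicate 3 (-0.86, adjusted p = 0.107), and 1.95 CPM in ES3 and 0.242 in C (3.03 ± 0.56, 0.000192). Phenylalanine aminomutase ppt_133847, of an enzyme that shifts the amino group in yew, was lower at all 3 stages, with 2.09 CPM in ES3 and 12.9 in C (-2.62 ± 0.29, 9.39e-07). With the deposited totals that value was -0.99 and no longer a call. In ES2 against EC (-1.10) it was under the fold set for a call without ES2 replicate A (-0.95), ES2 replicate B (-0.97) or EC replicate 2 (-0.93).

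The 4-coumarate-CoA ligases also differed among themselves. Of 5 transcripts, 3 were called higher in somatic embryos at each stage. Among them ppt_103765 exceeded the 2 CPM of the filter in somatic libraries alone and had to differ. Another of these, ppt_61342, had 8.73 CPM in ES2 and 0.997 in EC (3.13 ± 0.58). Since ppt_61342 passed the filter with its somatic libraries, in which it was high, no p is given for it. The 1 with the name from loblolly pine, ppt_91939, was called lower at the first stages. It had 6.86 CPM in ES1 and 18.3 in PC (-1.41 ± 0.29, adjusted p = 0.000668) and 3.67 CPM in ES2 and 10.1 in EC (-1.46 ± 0.30, 0.000525). It had 2.58 CPM in ES3 and 1.52 in C, which was not a call. Another, ppt_163174, was called at no stage. For both, the size of the difference in ES3 against C depended on the scaling of C. In CPM of the deposited total, ppt_91939 had 2.37 in ES3 and 0.457 in C, and ppt_163174 had 11.2 in ES3 and 2.21 in C.

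On the branch to the monolignols, all 4 caffeoyl-CoA O-methyltransferase transcripts were called higher at every stage, at log2 fold changes of 1.12 to 2.77. The largest value belonged to ppt_75082, which exceeded the 2 CPM of the filter in somatic libraries alone and had to differ. Among them ppt_113713 had 35.9 CPM in ES1 and 13.7 in PC (1.39 ± 0.26, adjusted p = 0.000265), 35.0 in ES2 and 12.2 in EC (1.52 ± 0.26, 0.000119), and 37.6 in ES3 and 8.30 in C (2.18 ± 0.27, 3.22e-06). Both cinnamoyl-CoA reductase transcripts, of the enzyme that starts the reduction of the activated acids to monolignols, were called higher at every stage. Of these, ppt_84865 had 6.64 CPM in ES1 and 1.52 in PC (2.12 ± 0.53) and 6.62 CPM in ES3 and 0.342 in C (4.22 ± 0.63). Since ppt_84865 passed the filter with its somatic libraries, in which it was high, no p is given for it. Laccase 11 ppt_74190, of a family of oxidases that polymerise monolignols, went the other way, with 1.97 CPM in ES2 and 9.87 in EC (-2.32 ± 0.49). It passed the filter with its PC and EC libraries, in which it was high, so no p is given for it. It was 0.66 ± 0.52 in ES3 against C, which was not a call. This size depended on the scaling of C, since in CPM of the deposited total the laccase had 1.41 in ES3 and 0.287 in C.

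The list held 6 transcripts named for side branches that use or make hydroxycinnamates. Of these 5 were called higher in ES1 than in PC and all 6 in ES2 than in EC, but only 2 in ES3 than in C, where 1 was lower. Hydroxycinnamaldehyde dehydrogenase ppt_181586, of an enzyme that oxidises the aldehydes to acids, had 13.5 CPM in ES2 and 3.70 in EC (1.87 ± 0.29, adjusted p = 4.72e-05), and 25.2 CPM in ES3 and 35.4 in C (-0.49 ± 0.27, 0.128). The carboxyl methyltransferase ppt_120528 had 4.45 CPM in ES2 and 0.893 in EC (2.34 ± 0.36, 4.62e-05), and 6.48 CPM in ES3 and 27.7 in C (-2.10 ± 0.34, 4.81e-05). The ES3 values depended on the scaling of C, since with the deposited totals they were 1.11 for ppt_181586, a call, and -0.48 for ppt_120528, not a call. An aldehyde dehydrogenase, ppt_254870, singled out after its values were seen, had 4.21, 3.34 and 3.66 CPM in ES1, ES2 and ES3 and 0 counts in all 9 zygotic libraries.

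The entry steps of the flavonoid branch did not rise with F3H in C. Chalcone isomerase family transcript ppt_184797 had 55.3 CPM in ES1 and 98.7 in PC (-0.84 ± 0.26, adjusted p = 0.0112, not a call at the fold set), and 20.9 in ES2 and 62.9 in EC (-1.59 ± 0.26, 8.97e-05). It had 10.4 CPM in ES3 and 1.54 in C (2.75 ± 0.31, 1.10e-06). Chalcone synthase ppt_117870 had 7.81 CPM in ES1 and 5.30 in PC and 2.77 CPM in ES2 and 3.29 in EC, neither a call, and 2.54 CPM in ES3 and 0.329 in C (2.93 ± 0.45, 3.04e-05).

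All 4 entry transcripts were called lower in C than in EC, at -5.35 ± 0.33 for ppt_184797 (7.31e-10) and -3.31 ± 0.45 for ppt_117870 (6.18e-06). F3H ppt_120249 was called higher over the same step, at 5.86 ± 0.48 (2.22e-08). The somatic embryos showed a step of their own, with the isomerase at -1.41 ± 0.26 (0.000708) in ES2 against ES1 and -1.0 ± 0.26 (0.0245) in ES3 against ES2. Of 38 list transcripts, 9 were called higher and 12 lower in C than in EC, where 22.7% and 29% of all tested transcripts were. With the deposited totals these were 4 and 29. The differences between the last and the first stage pair, ES3 against C and ES1 against PC, were themselves tested. Of the 38, 14 were called higher and 5 lower in this term, where 24.3% and 17.8% of all were, 42.1% in either direction.

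**Figure D5:**
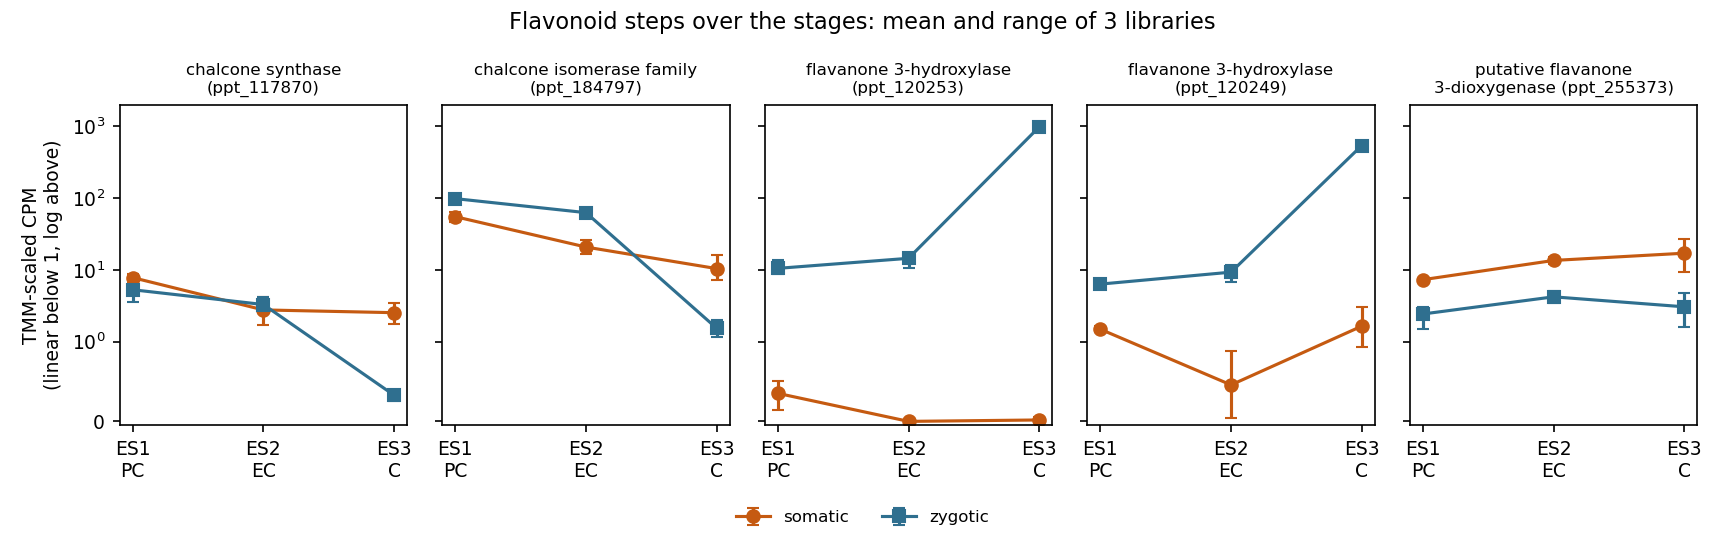
Mean TMM-scaled CPM with the range of 3 libraries for flavonoid transcripts over the stage pairs, somatic in orange and zygotic in blue, on an axis that is linear below 1 and logarithmic above. In C both F3H transcripts reach 984 and 542 CPM while chalcone synthase and isomerase fall to 0.329 and 1.54, and the putative dioxygenase ppt_255373 lies higher in somatic embryos throughout.

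Beyond the first branch points, CYP75B95 ppt_72333, a cytochrome P450 of the family that hydroxylates flavonoids, was called higher in 2 of the 3 comparisons. It had 9.30 CPM in ES2 and 2.56 in EC (1.86 ± 0.39), and 15.7 CPM in ES3 and 5.14 in C (1.61 ± 0.38). Since ppt_72333 passed the filter with its somatic libraries, in which it was high, no p is given for it. Phloretin glucosyltransferase ppt_132789 was called lower at the first stages, with 1.17 CPM in ES2 and 7.95 in EC (-2.76 ± 0.51). It had 1.06 CPM in ES3 and 0.0563 in C (4.15 ± 0.78), the latter from 4 counts. This transcript passed the filter with its PC and EC libraries, in which it was high, so no p is given.

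Correlations over the 18 libraries describe how closely other transcripts followed the 3. They are given without a p, since the libraries share 6 stages and the depth of C. On log2(CPM + 1), arogenate dehydratase and F3H had r = 0.91, EPSP synthase and arogenate dehydratase r = -0.82, and EPSP synthase and F3H r = -0.62. The named transcripts most like EPSP synthase were the late embryogenesis abundant proteins LEA1-2 ppt_198829 (r = 0.96) and LEA4-2 ppt_36861 (0.95), and maternal effect embryo arrest 14 ppt_112070 (0.95). For each of the 3, transcripts of its own enzyme step, uncharacterized proteins and repeats of a name were left out of the 2959 named transcripts. Of those left, the closest to arogenate dehydratase was MONOCULM 1 ppt_199485, a transcription factor of the GRAS family in rice (r = 0.998). It was followed by isoleucine--tRNA ligase ppt_239068 and a putative centromere protein ppt_87201 (0.98 each). Among all kept transcripts these ranked 3, 140 and 145.

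The named transcripts most like F3H were tobamovirus multiplication protein 1 ppt_187620 (0.98), a retrotransposon protein ppt_110868 and a putative spastin ppt_72686 (0.97 each). Among all kept transcripts they ranked 31, 46 and 52, and those named for EPSP synthase 7, 13 and 15. With the deposited totals the last 2 values for F3H were 0.68 and 0.76. Between 444 and 731 of 23117 transcripts had r above 0.9 with each of the 3.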

How the data were processed

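The 3 enzyme transcripts and the pathway list were chosen with earlier results of these data known, and 1 item of this pathway is not reported here. The deposited table holds raw read counts per transcript in 18 libraries, with 0 columns unused. For it the authors cleaned the reads with SeqTrimBB, built a transcriptome with Trinity 2.11, merged redundant contigs (CD-HIT-EST, Mira), mapped with BWA MEM and counted with sam2counts. No BWA version was stated, nor how reads with several matches were treated.

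Transcripts were kept if over 2 CPM in 6 or more libraries (23118). A quasi-likelihood model of 6 groups was fitted to all libraries with edgeR 4.0.16 (limma 3.58.1, R 4.3.3) and TMM factors, and p-values were adjusted by Benjamini-Hochberg over all kept transcripts. Standard errors are the size of the log2 fold change over the square root of F. A group of 1 to 3 counts gave a ratio with an exact binomial interval, and a group of none a bound from a floor of 3 counts over the group. Replicates differed beyond sampling noise (chi-square over degrees of freedom 12.6 to 158), so none was merged.

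Protein names come from the study's module tables, of which part was held. Named are all transcripts of arogenate dehydratase and F3H, the 3 with the highest mean CPM of each other step with different names where possible, and the 3 most correlated named transcripts. The most correlated ones leave out the enzyme's own step, uncharacterized proteins and repeated names. The model was checked on simulated data. Alternatives were other scalings, filters and thresholds, DESeq2 1.42.0, fewer groups, sums by name (entries that are only a sequence identifier were left unsummed), a replicate block and leaving out libraries. No genome or sequence was used here.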

Additional observations from a re-analysis of the deposited data

Results flagged for a closer look

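For 12 of the named transcripts, the somatic to zygotic difference itself differed between the last stage pair (ES3 against C) and the first (ES1 against PC), by the interaction term of the edgeR fit. Values are differences of log2 fold changes, last minus first, with the adjusted p. Over the whole list, 14 of 38 were called higher and 5 lower in this term, where 24.3% and 17.8% of all tested transcripts were. With the deposited totals these counts were 30 and 2.

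The flavonoid entry steps had positive values, at 3.59 for ppt_184797 (2.15e-06) and 3.65 for ppt_184798 (4.11e-06), both of the chalcone isomerase family, and 2.37 for chalcone synthase ppt_117870 (0.00266). F3H ppt_120249 had the opposite sign, at -6.33, given without a p because it passed the filter with its zygotic libraries. Phenylalanine ammonia-lyase ppt_58657 had 4.31 (9.26e-05) and 4-coumarate-CoA ligase ppt_91939 had 2.17 (0.000536). Phloretin glucosyltransferase ppt_132789 had 6.47 and laccase ppt_74190 had 2.29, both without a p because they passed the filter with their zygotic libraries. Cinnamoyl-CoA reductase ppt_84865 had 2.10, without a p because it passed the filter with its somatic libraries. Its call was lost in 7 of 12 omissions of 1 library (values 1.12 to 2.94).

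Of 6 side branch transcripts 4 were called lower and 1 higher in this term. Negative values were -3.77 for ppt_120528 (1.63e-05), -2.26 for ppt_181586 (0.000212) and -2.19 for ppt_214399 (0.000652). The positive one was 2.91 for aldehyde dehydrogenase ppt_39385, given without a p because it was named after its value was seen. With the deposited totals the term was -0.45 for ppt_181586 and -0.39 for ppt_214399, neither a call. The part of the C libraries' depth in these differences was not tested.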

How the results depend on the processing

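The direction of the 3 enzyme transcripts at the 3 stage pairs held under every alternative run. Their size and the list counts did not always hold, and the cause was not tested. With library size alone, C against EC was -0.75 for EPSP synthase, -0.15 for arogenate dehydratase and 4.45 for F3H (log2), and ES3 against C was 3.3 for EPSP synthase, -8.61 for arogenate dehydratase and 24048-fold lower for F3H. With deposited totals, C against EC was -1.25, -0.65 and 3.95, and ES3 against C was 3.80, -8.12 and 17016-fold. On deposited totals the mean CPM in PC, EC and C was 0.703, 1.13 and 0.475 for EPSP synthase, 24.4, 35.5 and 22.6 for arogenate dehydratase and 14.9, 19.1 and 295 for F3H. Summed by name, arogenate dehydratase was -8.97 in ES3 against C and 812-fold lower in ES2 than in EC. F3H was -3.19 in ES1 against PC, and lower by 51.3-fold in ES2 than in EC, 1004-fold in ES3 than in C and 4.11-fold in ES2 than in ES1.

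Counts are given as higher and lower of 38. In ES2 against ES1 (4 and 6), 2 were higher at an adjusted p under 0.01 and with a filter of 1 count. In ES3 against ES2 (3 and 1), they were 0 and 0 at an adjusted p under 0.01, with a filter of 1 count and with only the groups compared, and 1 and 0 with a filter of 1 CPM in 3 libraries. There 3 were lower with library size alone and with deposited totals. In EC against PC (1 and 0 with edgeR, 6 and 6 at an unadjusted p under 0.05), 2 were higher with library size alone and with deposited totals, 3 and 0 were called with DESeq2, and 2 and 1 with only the groups compared. In C against EC (9 and 12), library size alone gave 5 higher and 26 lower, and deposited totals gave 4 higher and 29 lower. For the interaction (14 and 5), these scalings gave 28 and 3, and 30 and 2, with 9 higher at an adjusted p under 0.01. In ES3 against C 4 were lower with deposited totals. Over 22 summed names, they were 12 and 7 in ES1 against PC, 12 and 8 in ES2 against EC, 16 and 2 in ES3 against C, 0 and 0 in ES3 against ES2, 0 and 0 in EC against PC and 9 and 3 for the interaction, with 3 lower in ES2 against ES1 and 3 higher in C against EC.

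The replicate letters and numbers did not pair the samples (same-label correlations -0.43 to 0.42, 5 of 18 pairs above 0.1). With the replicate block 1 transcript was called higher in ES3 against ES2, against 3 without, and no other list count moved by over 1.5 times. Leaving out ES1 replicate C, ES2 replicate B and ES3 replicate C together, chosen after seeing the data, gave 3 lower in ES3 against ES2, 2 higher in EC against PC, and arogenate dehydratase ratios of 415 and 774 in ES1 against PC and ES2 against EC. Leaving out 1 library at a time gave 2 to 4 higher in ES2 against ES1, 0 to 3 higher and 0 to 5 lower in ES3 against ES2 and 1 to 2 higher in EC against PC. The ratios then were 415 to 897 and 774 to 3634 for arogenate dehydratase in ES1 against PC and ES2 against EC, and for F3H 10.1 to 19.4 in ES2 against ES1, 389 to 705 in ES2 against EC and 23480 to 55339 in ES3 against C.

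With deposited totals ES3 against C was 0.20 for ppt_100235, 1.11 for ppt_181586 and 1.08 for ppt_214399, and the interaction was 1.70 for ppt_100235 (1.20 with library size alone) and 1.14 for ppt_133847, all of opposite sign to the TMM values. With Spearman's coefficient likeness to arogenate dehydratase was 0.86 for ppt_199485, 0.85 for ppt_239068 and 0.78 for ppt_87201, and to F3H 0.81 for ppt_187620 and 0.86 for ppt_72686. On deposited totals likeness to F3H was 0.68 for ppt_110868 and 0.76 for ppt_72686. Depth limits the transcripts at few counts. Among the 3 enzyme transcripts these are EPSP synthase in zygotic embryos and arogenate dehydratase and F3H in somatic embryos. Several list transcripts had few counts over the 3 C libraries, such as 4 for ppt_132789, 17 for ppt_58657, 24 for ppt_117870 and 26 for ppt_84865. Counting error is therefore large in their values for ES3 against C and for the interaction.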

Other observations

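The identifiers numbered around F3H ppt_120253 were counted almost only in C. Of 16 identifiers within 8 of it, 15 had counts in C and none in the other 15 libraries, with sums of 5368 to 7049 counts per C library and up to 1851 counts on 1 identifier in 1 library. Around arogenate dehydratase ppt_96282 6 of 16 were counted in C alone, with 9 to 21 counts, and around EPSP synthase ppt_146849 5 of 16, with 49 to 75 counts. Of all 287424 transcripts in the count table, 137783 were counted in C alone. The shares around arogenate dehydratase and EPSP synthase were below that of the whole table, and the share around F3H was above it. Transcripts counted in the 3 C libraries alone could not pass the filter. The windows were set after the values were seen.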
